A study of Mus musculus with 2 samples.

Results

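Pthlh (ENSMUSG00000048776) encodes parathyroid hormone-related protein (PTHrP), and its level was followed cell by cell in E17 mouse skin epithelium, from Krt79-rich follicle cells to Krt14-high cells without any follicle gene. It is 1 of the 27998 genes in the deposited tables. The gene was chosen by its measured level and share of positive cells across these same counts, which were known from earlier results, so its levels are a description and carry no test. The study listed Pthlh among the markers that named its cell clusters, while the gates used here did not draw on it. The cKO library held back skin cells of C57BL/6 embryos with Mettl3 fl/fl, and the Ctrl library held those of embryos with Mettl3 fl/+. Embryos of both groups also carried K14Cre and Rosa16-YFP fl/+ (spelled as in the labels). The study sorted their YFP-positive cells and selected among them by surface integrins to enrich for progenitors. These cells were read with the 10x Genomics 3′ V2 kit. How many embryos entered each library is not given in the sources used here. Mettl3 encodes the enzyme that writes most m6A on mRNA. K14Cre acts in progenitors of the skin epithelium and not in the dermis, and the Ctrl embryos were themselves heterozygous for the floxed allele.

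PTHrP resembles parathyroid hormone at its amino end and binds the same receptor, the product of Pth1r, which couples to the G proteins Gs and Gq. It mostly acts on neighbouring cells. In cartilage it forms a loop with Indian hedgehog, and in the embryonic mammary bud it passes from the epithelium to the mesenchyme. In skin, keratinocytes make the peptide and cells of the dermis carry the receptor.

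Barcodes with at least 1800 genes were kept, which left 3577 cKO cells with 34116275 UMIs (unique molecular identifiers, which count captured transcripts) and 4447 Ctrl cells with 43874554 UMIs. Of these barcodes, 16 occurred in both libraries. There was 1 library per genotype, so values compare libraries and not genotypes, and the 95% intervals in parentheses cover counting error only. Xist had 1 UMI in cKO cells and was found in 99.8% of Ctrl cells, so sex and genotype cannot be told apart. Mettl3 stood at 6.18 CPM in cKO and 12.7 CPM in Ctrl cells (CPM, a gene's UMIs in the summed cells scaled to 1e6 UMIs), but 3′ tags are blind to the loss of an inner exon. The basal keratin gene Krt14 had 5336 CPM in cKO and 7771 CPM in Ctrl cells, so a fixed Krt14 limit takes a different share of each library.

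The gene lies on the minus strand of chromosome 6, at chr6:147252101-147264183 of GRCm38 (GENCODE vM21), with 2 protein-coding transcripts of 1603 and 1281 bases. Both carry the same coding sequence of 528 bases, and differ in the first exon and by a few bases at the end. The start of that coding sequence is shown because it holds the processing site of the hormone. The capitals mark the 4 codons of its only match to the furin pattern (arginine, any residue, lysine or arginine, arginine), at residues 33 to 36 of 175, after which the secreted peptide begins.
Pthlh coding bases 1 to 240: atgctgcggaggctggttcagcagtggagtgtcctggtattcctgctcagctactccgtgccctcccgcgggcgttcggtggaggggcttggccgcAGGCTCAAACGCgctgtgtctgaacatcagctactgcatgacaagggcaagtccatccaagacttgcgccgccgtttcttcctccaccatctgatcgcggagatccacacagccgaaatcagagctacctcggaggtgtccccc

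The pentamer GGACT, shown in capitals, is the commonest form of the m6A motif. It was searched on the sense strand of the mRNA only, and the longest Pthlh transcript held 1 match, at coding base 425, against at least 1 match in the longest transcript of 87.6% of 21877 protein-coding genes. Per 1000 bases this was 0.624 matches, with a median of 1.01 over all these genes. A match is not evidence of a methylated site.
Pthlh coding bases 395 to 459: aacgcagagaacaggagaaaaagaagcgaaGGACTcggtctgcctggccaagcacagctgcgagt

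The assay reads the 3′ end of transcripts, and both annotated ends use 1 shared AATAAA signal, here in capitals. The counts therefore cannot separate the transcripts.
Pthlh-201, last 30 bases: AATAAAatataatctaattataccatgact
Pthlh-202, last 30 bases: gaatgtctAATAAAatataatctaattata

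Over all kept cells Pthlh had 5145 UMIs in the cKO and 4730 UMIs in the Ctrl library. These are 151 CPM (147 to 155) in cKO and 108 CPM (105 to 111) in Ctrl cells. At least 1 UMI was present in 29.1% of cKO cells (27.6 to 30.6, exact Clopper-Pearson) and in 20.3% of Ctrl cells (19.2 to 21.5). After each cell was thinned to 5500 UMIs, the shares were 23.5% of 3333 cKO cells and 17.0% of 4275 Ctrl cells, with 244 cKO and 172 Ctrl cells too shallow to enter.

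The UMIs were concentrated in few cells. Cells with 3 or more Pthlh UMIs made up 16.2% of cKO and 11.5% of Ctrl cells, yet they held 88.7% of the cKO and 89.6% of the Ctrl UMIs of the gene. The highest cell had 32 UMIs in the cKO and 34 in the Ctrl library.

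To ask which cells these were, cells were placed in exclusive gates by marker genes other than Pthlh. Sox9 (a transcription factor of early follicle stem cells), Lhx2 (a transcription factor of the hair placode and germ) and Krt79 (a keratin found in the forming hair canal) gave 3 follicle gates: Sox9 with Lhx2 (2 UMIs of each), Krt79 (3 UMIs) and Sox9 alone (2 UMIs). Cells with the placode ligand gene Shh and cells with Dkk4 or Fgf20, genes of the early placode, had their own gates. Suprabasal cells were gated on Krt1 and Krt10, at 20 or more UMIs per 10000. The remaining cells with at least 50 Krt14 UMIs per 10000 were split into follicle-gene-free cells, with 0 UMIs of all 6 follicle genes, and cells with a trace of them, and the last cells were Krt14-low.

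The marker lists were summed by gate, and as they hold the gating genes Sox9, Krt79 and Krt14, their sums are partly fixed by the gates. The 10 genes of the low-WNT follicle list summed to 5931 CPM in cKO and 6613 CPM in Ctrl cells of the Krt79 gate, against 644 CPM in cKO and 719 CPM in Ctrl follicle-gene-free cells. Of that list Gata6, a transcription factor of the upper follicle, was sparse, with 16 UMIs in all cKO and 17 in all Ctrl cells. The 5 basal markers summed to 17207 CPM in cKO and 22619 CPM in Ctrl follicle-gene-free cells. Merkel cell markers summed to 67.4 CPM in cKO and 95.9 CPM in Ctrl cells of the Krt79 gate, where Krt20 had 0 UMIs and Atoh1, a Merkel cell transcription factor, stood at 27.2 CPM in cKO and 30.2 CPM in Ctrl cells. Hemoglobin Hbb-bs, a red cell gene, had 245 CPM in cKO and 24.9 CPM in Ctrl cells of that gate, and the part of either in the Pthlh values was not tested.

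Pthlh stood highest in the Krt79 gate. The 214 cKO cells there had 864 CPM (822 to 908) and the 244 Ctrl cells 903 CPM (862 to 945), with a UMI in 88.8% of cKO and 92.2% of Ctrl cells. After thinning these shares were 83.6% in cKO and 89.5% in Ctrl cells. Nearly all of the signal came from cells with many UMIs: 162 cKO and 186 Ctrl cells had 3 or more, and they held 97.6% of the cKO and 97.1% of the Ctrl UMIs of the gate.

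The Sox9 gates came next. With Lhx2, 169 cKO cells had 377 CPM (349 to 407) and 198 Ctrl cells 415 CPM (388 to 443). With fewer than 2 Lhx2 UMIs, 293 cKO cells had 414 CPM (391 to 439) and 249 Ctrl cells 349 CPM (326 to 374). The order of the Sox9 gates differed between the libraries: Sox9 Lhx2 over Sox9 alone was 0.911 (0.828 to 1.00) in cKO and 1.19 (1.08 to 1.31) in Ctrl cells, and this order moved with the gate limits. With follicle genes at 1 UMI, Sox9 Lhx2 had 452 CPM in cKO and 438 CPM in Ctrl cells, above Sox9 alone with 195 CPM in cKO and 166 CPM in Ctrl cells. At 3 UMIs, and 5 of Krt79, it had 271 CPM in cKO and 325 CPM in Ctrl cells. This was below Sox9 alone with 526 CPM in cKO and 490 CPM in Ctrl cells. The Krt79 limit moved along in both settings, and the Krt79 gate was filled before Sox9 alone. Which limit moved the order was not tested. The Krt79 gate exceeded the Sox9 Lhx2 gate 2.29-fold (2.09 to 2.51) in cKO and 2.18-fold (2.01 to 2.36) in Ctrl cells.

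**Figure D1:**
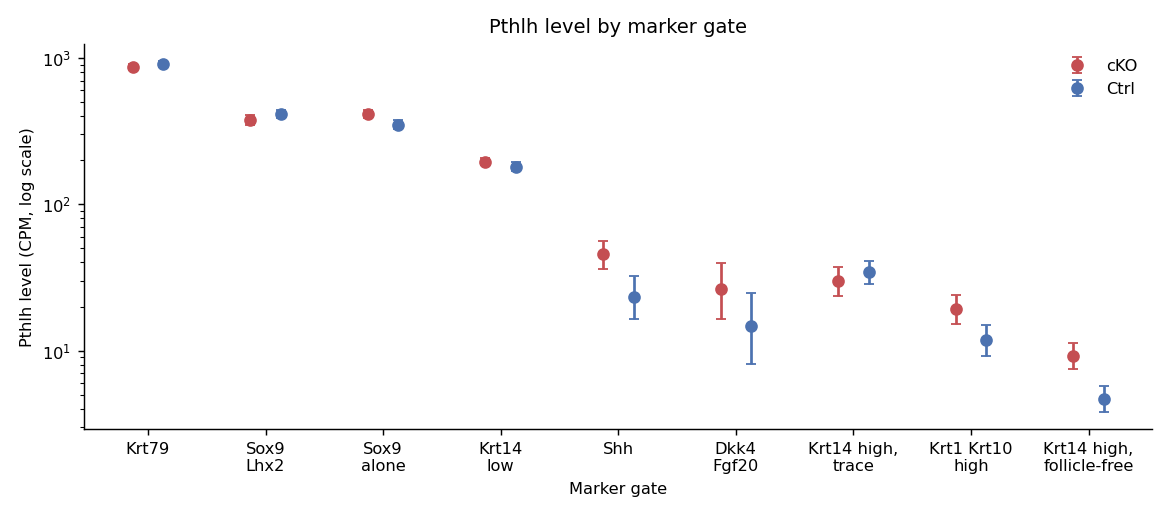
Pthlh level in CPM (vertical axis, log scale) in 9 marker gates (horizontal axis) of the cKO and Ctrl libraries, with 1 point per library and lines for the exact Poisson 95% interval, which covers counting error only. The Krt79 gate is highest, at 864 CPM in cKO and 903 CPM in Ctrl cells, and the follicle-gene-free Krt14-high gate is lowest, at 9.24 CPM in cKO and 4.70 CPM in Ctrl cells.

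The Shh gate, although also of the follicle, was low. It had 45.4 CPM (36.3 to 56.0) in 188 cKO cells and 23.3 CPM (16.4 to 32.1) in 150 Ctrl cells. In the cKO library 6 cells with 3 or more UMIs held 47 of its 87 Pthlh UMIs, and in the Ctrl library 1 such cell held 3 of 37. The Dkk4 Fgf20 gate had 26.2 CPM in cKO and 14.7 CPM in Ctrl cells, on 22 cKO and 14 Ctrl UMIs. The Shh gate exceeded it 1.73-fold (1.08 to 2.91) in cKO and 1.58-fold (0.835 to 3.17) in Ctrl cells, and the Ctrl interval includes 1. Among cells of the follicle gates with exactly 1 Shh UMI, Pthlh had 126 CPM in 21 cKO and 294 CPM in 20 Ctrl cells, against 549 CPM in cKO and 554 CPM in Ctrl cells with none. Pthlh was thus highest in follicle cells with Sox9 or Krt79, not in those with Shh.

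Krt14-low cells were intermediate, at 195 CPM (185 to 206) in 845 cKO cells and 181 CPM (169 to 194) in 524 Ctrl cells. They met none of the follicle gates, but Lhx2 was gated only together with Sox9, so cells with Lhx2 alone could enter. Lhx2 stood at 70.4 CPM in cKO and 125 CPM in Ctrl cells of this gate. Within this gate, cells with exactly 1 Sox9 UMI had 401 CPM in cKO and 322 CPM in Ctrl cells, against 129 CPM in cKO and 128 CPM in Ctrl cells with none. Those with fewer than 5 UMIs per 10000 of Krt17, a keratin of follicle and activated keratinocytes, had 21.1 CPM in cKO and 42.9 CPM in Ctrl cells. The gate is the remainder of the others and does not stand for a cell type.

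Cells with a trace of a follicle gene had 29.8 CPM (23.5 to 37.3) in 239 cKO and 34.2 CPM (28.4 to 40.8) in 340 Ctrl cells, and Krt1 Krt10 cells had 19.1 CPM (15.2 to 23.8) in 364 cKO and 11.8 CPM (9.12 to 15) in 471 Ctrl cells.

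At the low end, follicle-gene-free Krt14-high cells had 9.24 CPM (7.54 to 11.2) in 1149 cKO cells and 4.70 CPM (3.82 to 5.72) in 2153 Ctrl cells. The Krt79 gate was 93.6-fold (76.6 to 115) above this gate in the cKO library and 192-fold (157 to 237) above it in the Ctrl library. Across all genes with at least 20 UMIs in the pair of gates, 20 of 10719 in the cKO and 12 of 11356 in the Ctrl library had a higher ratio of these gates than Pthlh, with Krt79, Sox9 and the neurotrophin gene Bdnf at the top of both. Krt79 and Sox9 defined these gates.

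The limits of the gates were not edges of the signal. Cells with exactly 1 Sox9 UMI had 248 CPM in cKO and 238 CPM in Ctrl cells, and cells with exactly 2 had 440 CPM in cKO and 444 CPM in Ctrl cells. For Krt79, cells just outside the limit, with 2 UMIs, had 843 CPM in cKO and 749 CPM in Ctrl cells, and those just inside, with 3, had 894 CPM in cKO and 720 CPM in Ctrl cells. Between 40 and 60 Krt14 UMIs per 10000 lay 14.9% of cKO cells at 48.9 CPM and 11.7% of Ctrl cells at 62.8 CPM.

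Over all kept cells Pthlh did not follow Krt79 all the way up. These cells include the Krt1 Krt10 gate, with Krt79 at 98.7 CPM in cKO and 88.1 CPM in Ctrl cells. Pthlh stood there at only 19.1 CPM in cKO and 11.8 CPM in Ctrl cells, and the part of that gate in the bins was not tested. The level of Pthlh peaked at 3 to 5 Krt79 UMIs in the cKO library, with 961 CPM (907 to 1018), and at 6 to 10 in the Ctrl library, with 986 CPM (920 to 1055). At 11 or more Krt79 UMIs it was 478 CPM (424 to 538) in 56 cKO cells and 720 CPM (657 to 788) in 73 Ctrl cells. By Sox9 UMIs it was flat above the lowest bins, with 507 CPM in cKO and 483 CPM in Ctrl cells at 4 to 7 UMIs, and 417 CPM in cKO and 444 CPM in Ctrl cells at 8 or more.

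Within the 3 follicle gates Pthlh was lower in cells with more Krt14. Cells with under 10 Krt14 UMIs per 10000 had 700 CPM (663 to 738) in the cKO and 682 CPM (637 to 730) in the Ctrl library, while those with 50 or more had 109 CPM (87.6 to 134) in 59 cKO cells and 179 CPM (155 to 205) in 97 Ctrl cells.

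**Figure D2:**
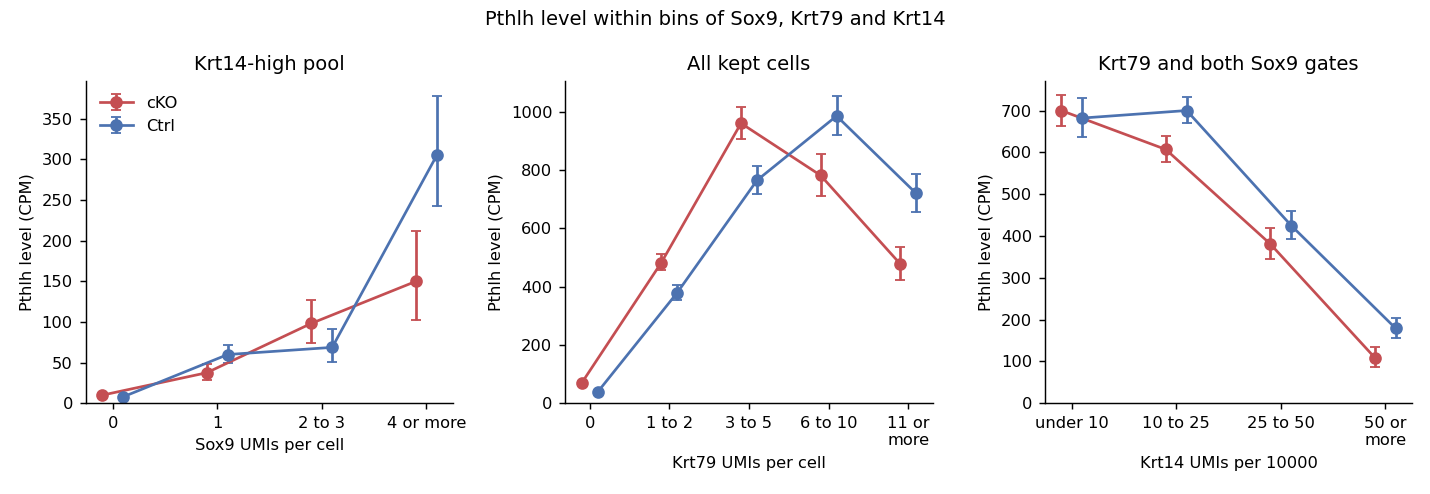
Pthlh level in CPM (vertical axes) in the cKO and Ctrl libraries within bins of Sox9 UMIs per cell in the Krt14-high pool (left), of Krt79 UMIs per cell in all kept cells (middle) and of Krt14 UMIs per 10000 in the Krt79 and both Sox9 gates (right), with lines for the exact Poisson 95% interval. In the pool the level at 0 Sox9 UMIs is 10.0 CPM in cKO and 7.95 CPM in Ctrl cells, and the peak by Krt79 is at 3 to 5 UMIs in cKO and 6 to 10 UMIs in Ctrl cells.

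Pthlh was also lower in follicle cells with transcripts of cycling cells. In the Sox9 alone gate, cells with a UMI of Mki67 or Top2a, genes of proliferating cells, had 344 CPM in cKO and 276 CPM in Ctrl cells, and those without had 592 CPM in cKO and 489 CPM in Ctrl cells. The ratio of cells with to cells without was 0.581 (0.516 to 0.654) in the cKO and 0.564 (0.491 to 0.648) in the Ctrl library. It was 0.627 in cKO and 0.617 in Ctrl cells of the Sox9 Lhx2 gate, and 0.794 in cKO and 0.831 in Ctrl cells of the Krt79 gate. Depth per cell was not matched in this split.

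The Krt14-high pool, that is every cell with at least 50 Krt14 UMIs per 10000 outside the suprabasal, Merkel and non-epithelial gates, held 1475 cKO and 2666 Ctrl cells. Pthlh had 18.7 CPM (16.6 to 21.0) in cKO and 16.2 CPM (14.7 to 17.8) in Ctrl cells of the pool, with a UMI in 9.36% of cKO and 6.19% of Ctrl cells. Again a few cells held most of it: 23 cKO cells with 3 or more UMIs held 52.9% of the pool's Pthlh, and 39 such Ctrl cells held 67.4%.

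Cells of the pool with more Sox9 carried more Pthlh. At 0 Sox9 UMIs the level was 10.0 CPM (8.34 to 12) in 1265 cKO and 7.95 CPM (6.86 to 9.17) in 2401 Ctrl cells. At 1 UMI it was 37.6 CPM (29 to 48) in cKO and 60 CPM (49.3 to 72.2) in Ctrl cells, and at 2 to 3 UMIs 98.3 CPM (74.6 to 127) in cKO and 68.8 CPM (50.4 to 91.8) in Ctrl cells. At 4 or more it reached 150 CPM (103 to 212) in 13 cKO and 305 CPM (243 to 378) in 22 Ctrl cells. The libraries changed places from bin to bin, while in both the level was higher with more Sox9. The cKO over Ctrl ratio at 1 Sox9 UMI, 0.627 (0.454 to 0.860), became 1.63 with a Krt14 limit of 80 per 10000, and the highest cKO bin is thinly filled.

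Krt17 sorted the pool in a like way. Cells with under 5 Krt17 UMIs per 10000 had 9.65 CPM (7.73 to 11.9) in cKO and 2.88 CPM (2.11 to 3.84) in Ctrl cells, and those with 40 or more had 75.9 CPM (49.1 to 112) in 33 cKO and 109 CPM (90.6 to 130) in 130 Ctrl cells. Pool cells with a Pthlh UMI had a median of 7.62 Krt17 UMIs per 10000 in the cKO and 16.7 in the Ctrl library, against 3.04 in cKO and 3.02 in Ctrl cells without one. Sox9 was found in 31.2% of the Pthlh-positive cKO and 41.2% of the positive Ctrl pool cells, and in 12.5% of the negative cKO and 7.88% of the negative Ctrl cells. Their median Krt14 was lower, at 69.6 UMIs per 10000 in positive cKO and 73.8 in positive Ctrl cells, against 81.6 in negative cKO and 99.1 in negative Ctrl cells.

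Depth differs between these cells too, with a median of 11340.5 UMIs in positive cKO and 9425 in positive Ctrl cells, against 9069 in negative cKO and 9062 in negative Ctrl cells. Genes with at least 20 UMIs in the positive pool cells of each library were ranked by the lower of the library ratios. Among them Tgfb2, a TGF-β ligand, led at 10.1-fold (6.04 to 16.8) in cKO and 16.4-fold (11.3 to 23.8) in Ctrl cells. Runx1, a transcription factor of hair follicle stem cells, followed at 7.69-fold in cKO and 12.2-fold in Ctrl cells. Krt79 was 5.43-fold higher in positive cKO and 18.1-fold higher in positive Ctrl cells. Below that UMI minimum, Nfatc1 was 10.9-fold higher in cKO, on 12 UMIs, and 17.1-fold higher in Ctrl cells, and Lhx2 7.04-fold higher in cKO and 6.42-fold higher in Ctrl cells.

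The other leading genes were Mgp, an inhibitor of calcification, Creb5, a DNA-binding protein, Penk, the precursor of enkephalin peptides, Sox9, Cntfr, a cytokine receptor, Barx2, a homeobox factor, and Fgfr1, an FGF receptor. Their ratios ran from 2.58 for Fgfr1 to 5.43 for Mgp in cKO cells and from 3.40 for Fgfr1 to 7.12 for Sox9 in Ctrl cells. Sox9, Krt79, Tgfb2 and Fgfr1 are on the low-WNT follicle list. Krt14 itself was 0.846-fold in cKO and 0.820-fold in Ctrl cells.

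**Figure D3:**
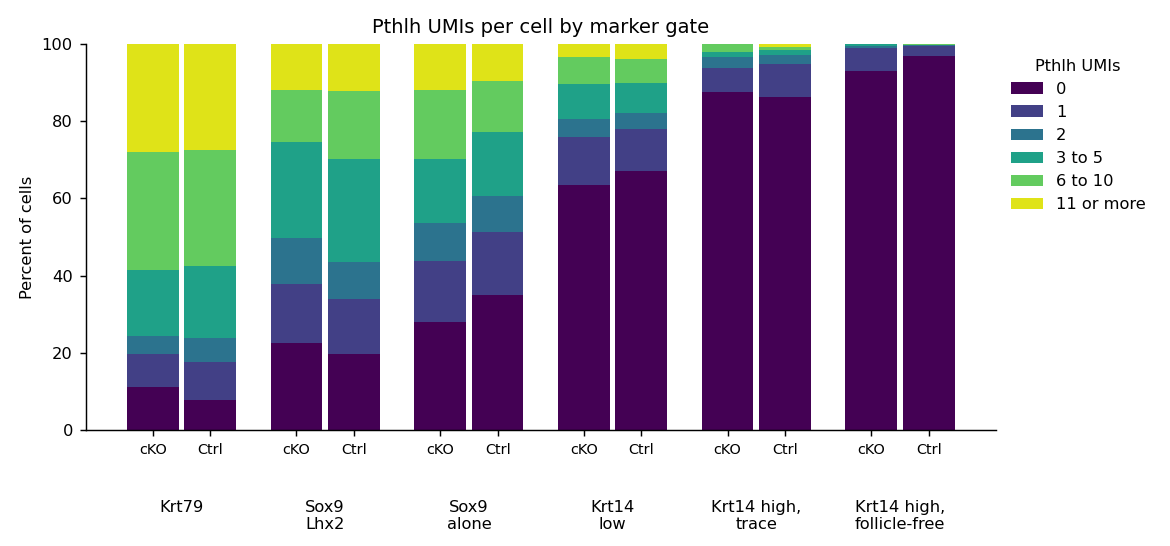
Percent of cells (vertical axis) with 0, 1, 2, 3 to 5, 6 to 10 and 11 or more Pthlh UMIs, stacked, in 6 marker gates with the cKO library left of the Ctrl library. In the Krt79 gate 75.7% of cKO and 76.2% of Ctrl cells have 3 or more UMIs, and in the follicle-gene-free Krt14-high gate 0.522% of cKO and 0.279% of Ctrl cells do.

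In follicle-gene-free cells 79 of 1149 cKO cells (6.88%, 5.48 to 8.50) and 67 of 2153 Ctrl cells (3.11%, 2.42 to 3.94) had a Pthlh UMI, and most of these, 68 in the cKO and 58 in the Ctrl library, had exactly 1. After thinning to 5500 UMIs the shares were 4.13% (3.04 to 5.47) in cKO and 2.14% (1.56 to 2.85) in Ctrl cells. Suprabasal Krt1 Krt10 cells, taken as a type that should hold little Pthlh, had 4.80% (2.82 to 7.58) in cKO and 4.11% (2.49 to 6.35) in Ctrl cells after thinning, and 8.24% in cKO and 5.94% in Ctrl cells without it. This gate was set before the follicle gates, so cells with follicle genes could enter it. Krt79 stood there at 98.7 CPM in cKO and 88.1 CPM in Ctrl cells. Sox9 stood there at 19.8 CPM in cKO and 17.2 CPM in Ctrl cells. The gate was not free of cells high in Pthlh. The 9 cKO and 3 Ctrl cells with 3 or more UMIs held 70.0% of the gate's Pthlh UMIs in cKO and 57.6% in Ctrl cells. The median depth was 8950 UMIs in cKO and 9024 in Ctrl follicle-gene-free cells, and 10458.5 in cKO and 10730 in Ctrl Krt1 Krt10 cells. The follicle-gene-free shares did not exceed the suprabasal ones, but a comparison gate with such cells does not set a background level. Follicle-gene-free cells with 1 or 2 Pthlh UMIs had a median of 4.91 Krt17 UMIs per 10000 in cKO and 5.11 in Ctrl cells, against 2.70 in cKO and 2.67 in Ctrl cells without Pthlh. Expression and free RNA cannot be told apart for single UMIs of this gate.

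Pthlh was also found outside cells, at 59.3 CPM (51.7 to 67.6) of the free RNA in the cKO and 43.0 CPM (37.5 to 49.0) in the Ctrl library, from barcodes with 10 to 100 UMIs. Hemoglobin genes, which belong to red cells, stood in follicle-gene-free cells at 4.24% to 6.73% of their free level in the cKO and at 4.51% to 10.1% in the Ctrl library. At those shares free RNA would hold 2.51 to 3.99 CPM of Pthlh in cKO and 1.94 to 4.34 CPM in Ctrl cells, against the measured 9.24 CPM in cKO and 4.70 CPM in Ctrl cells. By Krt1 the figure would be 4.28 CPM in cKO and 2.77 CPM in Ctrl cells. By Krt10 it would be 4.27 CPM in cKO and 3.33 CPM in Ctrl cells, though the gates set an upper limit on both genes. Lor, a cornified envelope gene, would put the figure at 18.3 CPM in the cKO library, above the measured level, and its share cannot be told apart from expression. In the Krt79 gate Hbb-bs stood at 63.3% of its free level in cKO and at 3.93% in Ctrl cells. At those shares free RNA would hold 37.5 CPM of Pthlh in cKO and 1.69 CPM in Ctrl cells, against the measured 864 CPM and 903 CPM. The 6 cKO and 6 Ctrl follicle-gene-free cells with 3 or more Pthlh UMIs held 24.3% of the gate's UMIs in cKO and 35.4% in Ctrl cells, and had a median of 20.8 Krt17 UMIs per 10000 in cKO and 39.2 in Ctrl cells.

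The comparison of the libraries then asks where the higher total of the cKO library lay. Over all kept cells Pthlh was 1.40-fold (1.34 to 1.46) higher in cKO than in Ctrl cells, a log2 ratio of 0.48, and 11% of the 13184 genes with at least 20 UMIs had a higher ratio. It was under 2-fold, the size used here for a call, which 1.99% of these genes exceeded. By gate it was not called either, in any of the 10 gates and pools with a value, where from 1.69% of genes (the Krt14-high pool) to 3.55% (the Dkk4 Fgf20 gate) exceeded 2-fold.

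In the 3 follicle gates the libraries lay close together. The ratio was 0.958 (0.895 to 1.02) in the Krt79 gate, 0.911 (0.823 to 1.01) in the Sox9 Lhx2 gate and 1.19 (1.08 to 1.30) in the Sox9 alone gate. In Krt14-low cells it was 1.08 (0.984 to 1.18) and in the Krt14-high pool 1.16 (0.992 to 1.35). The Krt14-low ratio was 2.27 with the Krt14 limit at the median of each library and 0.869 in cells with 2500 genes or more. The pool ratio had no steady direction: it was 0.852 after thinning and 0.703 in cells without Mki67 or Top2a, but 1.64 with a Krt14 limit of 80 per 10000. The Krt79 ratio was 1.08 when 1 UMI of a follicle gene was enough. More than 2-fold higher in cKO were 1.87% of genes in the Krt79 gate, 2.01% in the Sox9 Lhx2 gate, 2.42% in the Sox9 alone gate and 2.08% in Krt14-low cells.

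Where Pthlh was low the ratios varied more. They were 1.97 (1.48 to 2.62) in follicle-gene-free cells, on 103 cKO and 99 Ctrl UMIs, 1.95 (1.31 to 2.95) in the Shh gate, and 1.62 (1.16 to 2.28) in Krt1 Krt10 cells. The Dkk4 Fgf20 gate had a ratio of 1.78 (0.869 to 3.76), with 3.55% of genes over 2-fold. Cells with a trace of a follicle gene had 0.873 (0.647 to 1.17), with 2.34% of genes over 2-fold. The Shh ratio was 1.01 after thinning before gating and 1.06 with follicle genes at 1 UMI. The trace ratio was 0.458 after thinning and 0.429 in cells without Mki67 or Top2a, but 2.54 with a Krt14 limit of 80 per 10000 and 3.36 with the limit at the median of each library, so neither gate had a steady value. Of all genes 1.82% exceeded 2-fold in the follicle-gene-free gate, 2.73% in the Shh gate and 3.47% in Krt1 Krt10 cells. The follicle-gene-free ratio lay close to the 2-fold line and crossed it with the settings: it was 2.80 with a Krt14 limit of 30 per 10000, 2.08 in cells with 2500 genes or more, and 1.45 with a Krt14 limit of 80. With 5% of each sum subtracted as free RNA of its library, follicle-gene-free cells had 6.61 CPM in cKO and 2.69 CPM in Ctrl cells, a ratio of 2.46.

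**Figure D4:**
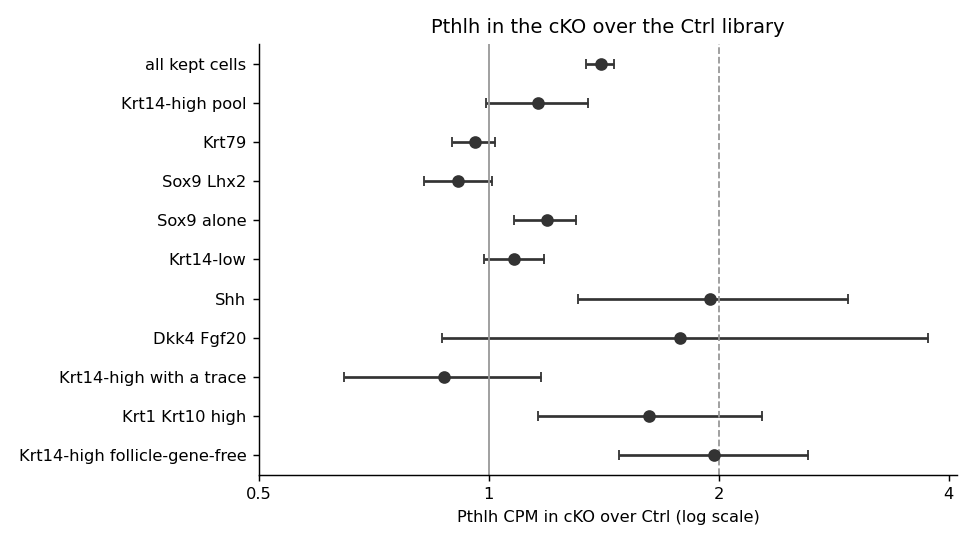
Ratio of Pthlh CPM in the cKO over the Ctrl library (horizontal axis, log scale) over all kept cells, in the Krt14-high pool and in 9 gates (vertical axis), with exact binomial 95% intervals that cover counting error only, a solid line at 1 and a dashed line at 2. The ratio is 0.958 in the Krt79 gate and 1.97 in follicle-gene-free cells, and no point lies above 2.

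The libraries also differed in the share of cells in each gate. Krt14-low cells were 23.6% of cKO and 11.8% of Ctrl cells and held 26.0% of the cKO and 16.7% of the Ctrl Pthlh UMIs. Follicle-gene-free cells were 32.1% of cKO and 48.4% of Ctrl cells. The 3 follicle gates together were 18.9% of cKO and 15.5% of Ctrl cells, and held 66.8% of the cKO and 76.1% of the Ctrl UMIs of the gene. If the Ctrl level of each gate is weighted by the cKO shares of UMIs, the total is 143 CPM, 1.33-fold the Ctrl value, while cKO levels at Ctrl shares give 113 CPM, 1.05-fold. Cell shares also depend on the fixed Krt14 limit and on the sort, whose part was not tested.

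The receptor side of the pathway was nearly absent from the sorted cells. Pth1r had 16 UMIs in the cKO and 10 in the Ctrl library, and in the 9 cKO cells and 9 Ctrl cells of the non-epithelial gate its level was 213 CPM in cKO and 14.1 CPM in Ctrl cells. That gate held only 61006 UMIs in cKO and 70767 UMIs in Ctrl cells, and its cells differed between the libraries. Among its markers Col3a1 had 2197 CPM in cKO and 735 CPM in Ctrl cells. Pmel had 115 CPM in cKO and 4084 CPM in Ctrl cells. The other ligands Pth and Pth2 and the receptor gene Pth2r had 0 UMIs in both libraries. Pthlh itself had 0 UMIs in those 9 cKO and 9 Ctrl cells, which by a limit of 3 counts allows a share of up to 33.3% of cells with a UMI in each, and 0 in 9 cKO and 15 Ctrl Merkel cells, which allows up to 33.3% in cKO and 20% in Ctrl cells.

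The list of receptor coupling genes was mostly measured. Gnas, which encodes the Gs subunit downstream of the receptor, had 888 CPM in cKO and 1058 CPM in Ctrl cells of the Krt79 gate. Of the 8 listed coupling genes 7 were measured in follicle-gene-free cells, 3 with a log2 ratio of cKO over Ctrl above 0 and 4 below, with a median of -0.18 against 0.01 over all genes. The highest was Ramp2, an accessory protein of related receptors, at 0.89, and 0 of the 7 were over 2-fold higher in cKO, against 1.82% of all genes in that gate.

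Furin, a protease of the secretory pathway, cuts the PTHrP precursor at the motif shown above, and Furin had 31.5 CPM in cKO and 36.9 CPM in Ctrl cells of the Krt79 gate. In follicle-gene-free cells it had 14 CPM in cKO and 11.4 CPM in Ctrl cells. The other convertase genes had few UMIs, with Pcsk7 at 4.35 CPM in cKO and 6.24 CPM in Ctrl cells of the Krt79 gate, Pcsk5 and Pcsk6 at 39 and 87 UMIs in all cKO cells and at 36 and 66 UMIs in all Ctrl cells, and Pcsk1 at 1 UMI in the cKO and 0 in the Ctrl library. The ratio of cKO over Ctrl for Furin was 0.854 (0.596 to 1.22) in the Krt79 gate.

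Signals that regulate PTHrP in other tissues include hedgehog, TGF-β and EGF ligands. In the Krt79 gate 6 of the 11 listed hedgehog genes were measured, 2 above and 4 below 0 with a median log2 ratio of -0.28 against -0.01 over all genes, and 0 were over 2-fold higher in cKO, against 1.87% of all genes. The hedgehog median was 0.13 in follicle-gene-free cells, 0.06 in the Sox9 Lhx2 gate and -0.19 in the Sox9 alone gate. Ihh had 2 UMIs in each library. Of 9 TGF-β genes all 9 were measured in the Krt79 gate, 3 above and 6 below 0, with a median of -0.21. The TGF-β median was 0.18 in follicle-gene-free cells, -0.11 in the Sox9 Lhx2 gate and -0.14 in the Sox9 alone gate. In the Sox9 Lhx2 gate 1 of 8 measured was over 2-fold higher in cKO, against 2.01% of all genes. This was Smad7, at 3.17 (1.74 to 6.03) on 42 cKO and 16 Ctrl UMIs. Smad7 had 1.75 in follicle-gene-free cells, 1.22 in the Sox9 alone gate and 1.05 in the Krt79 gate. In those gates 0 TGF-β genes were over 2-fold higher. Tgfb2 had 340 CPM in both libraries in the Krt79 gate, with a ratio of 0.999 (0.896 to 1.11). Its ratio was 0.868 (0.760 to 0.990) in the Sox9 Lhx2 gate and 1.36 (1.14 to 1.63) in the Sox9 alone gate. Of 8 EGF genes 4 were measured in the Krt79 gate, 2 above and 2 below 0, with a median of -0.02. The EGF median was 0.13 in follicle-gene-free cells, 0.05 in the Sox9 Lhx2 gate and -0.03 in the Sox9 alone gate.

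Across the 18 sums of 9 gates in each library, the genes whose log2(CPM + 1) was most like that of Pthlh among 10183 others were Sema3e (Pearson r 0.962), an axon guidance ligand, Nfatc1 (0.960), a transcription factor of hair follicle stem cells, and Egr2 (0.956), an early-response transcription factor. Lpar3, Itgb8, Tmem108, Bdnf, Adgra3, Tshz2 and Inhbb followed, from 0.956 to 0.949. These r are a description: sums from the same library hold different cells, but share that library and the genes used to gate. Sox9 had 0.875, Krt17 0.908 and Krt79 0.768, and Shh -0.125 and Krt14 -0.747. Bdnf, a neurotrophin gene, had 137 CPM in cKO and 66.2 CPM in Ctrl cells of the Krt79 gate, against 0.359 CPM in cKO and 0.0475 CPM in Ctrl follicle-gene-free cells.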

How the data were processed

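Skin epithelial cells were measured in 1 cKO and 1 Ctrl library at embryonic day 17. The deposited tables hold unnormalized UMI counts for every gene and barcode. The submitters' processing notes name Cell Ranger 2.0 and mm10, and the methods give another version. Pthlh, the gates and the gene lists were chosen with earlier results of these data known. The bins, the split by Mki67 or Top2a, the free RNA genes, the ranks over all genes and the weighting by gate shares were chosen after values had been seen. Besides Pthlh, the genes named are gate genes, list members, the 10 most like Pthlh (200 UMIs or more), the 10 highest in Pthlh-positive over negative pool cells, and a few given as checks.

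UMIs were summed per gate and library and scaled to CPM. Intervals at the 95% level were exact Poisson for CPM, Clopper-Pearson for shares and conditional binomial for ratios. Only the ratio intervals were tested on simulated counts, which were Poisson sums without spread between cells. A gene was measured with at least 20 UMIs in the sums compared, and a sum of 0 was set to 3 counts. Each genotype has 1 library, so no difference was tested. Doublets were kept: Scrublet marked 3 cKO and 6 Ctrl cells, under 0.5%, so an alternative left out the 4% with the highest scores. Gene minimum, mitochondrial share, depth, scaling, cell weight, free RNA, cycling cells and gate limits were varied too. Sequences came from GRCm38 with GENCODE vM21. Python 3.11.15, numpy 2.4.6, scipy 1.17.1, pandas 2.3.3, scanpy 1.11.5 and matplotlib 3.10.9 were used.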

Additional observations from a re-analysis of the deposited data

How the results depend on the processing

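Of 509 values under 16 alternative settings, 377 moved by less than the counting error, 130 moved by more and 2 were counted as reversed. A reversal was counted only for ratios whose main interval excluded 1. Other ratios crossed 1 too, such as 1.16 to 0.703 in the Krt14-high pool and 0.958 to 1.08 in the Krt79 gate. The cause of a move was not tested. With cells thinned to 5500 UMIs before gating, the ratio of cKO over Ctrl was 0.831 in the Krt79 gate, 0.852 in the Krt14-high pool and 1.29 over all kept cells. It was 1.08 in the Krt79 gate with follicle genes at 1 UMI and 0.882 with 3 and 5 UMIs. In cells without Mki67 or Top2a it was 0.703 in the pool and 1.55 over all kept cells, and with at least 2500 genes 1.33 over all kept cells. With Krt14 limits of 30 and 80 per 10000 it was 2.80 and 1.45 in follicle-gene-free cells, and with 80 it was 1.64 in the pool. A limit at the median Krt14 of each library, chosen after seeing the data, gave 2.28 in the pool, 2.08 at 0 Sox9 UMIs and 1.83 at 1 Sox9 UMI. At 0 Sox9 UMIs the ratio was 1.74 with a Krt14 limit of 30, and at 1 Sox9 UMI it was 1.63 with a limit of 80. This 1.63 and the 1.83 are the 2 values counted as reversed. The Krt79 gate over follicle-gene-free cells was 70.2 in cKO and 151 in Ctrl cells with at least 2500 genes, and 137 in cKO and 353 in Ctrl cells with 5% free RNA subtracted. It was 60 and 140 in cKO cells with Krt14 limits of 30 and 80, and 141 in Ctrl cells with follicle genes at 1 UMI. Among results on other gates and levels, 293 of 404 values moved by less than the counting error. No paired analysis was possible because each genotype has 1 library. Depth limits the low gates: the Dkk4 Fgf20 values rest on 22 cKO and 14 Ctrl UMIs, and the follicle-gene-free values on 103 cKO and 99 Ctrl UMIs.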
